A study of Homo sapiens with 8 samples.

Results

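The mRNA levels of 44 genes of DNA replication were described in 2 pancreatic cancer cell lines, with and without an siRNA against the homeobox gene HOXB7. The members are the genes whose names stood on a fixed list of replication proteins and matched the gene name of a non-control probe on the array. All 44 were found, among 27274 named genes on the array, and they were measured by 55 of 34127 gene probes. By step, 8 genes act at origins (recognition, licensing and firing), 11 belong to the replicative helicase or activate it, 20 belong to the polymerases and their accessory proteins, and 5 supply nucleotides or remove uracil. The array design used the names ORC1L, ORC2L and ORC6L for the genes now called ORC1, ORC2 and ORC6.

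MIA PaCa-2 is a line from a primary pancreatic tumor and Capan-1 a line from a hepatic metastasis of a pancreatic tumor. Each line was studied as cells given HOXB7 siRNA at 10 nM for 48 h and as parental cells that received no RNAi, with 2 one-colour arrays in each of the 4 groups. The siRNA came from a kit of Dicer-substrate duplexes and was delivered with a lipid reagent, and which duplex was used on the arrays was not stated in the sources used here. No array held cells given a scrambled siRNA, so the effect of the HOXB7 siRNA and that of transfection cannot be told apart. Each line was on a slide of its own, and siRNA and parental RNA lay at different positions on each slide, so slide cannot be told apart from line, nor position from treatment. The study's methods speak of transfections and arrays made in duplicate, but the sources used here do not say whether each array had a culture of its own, so the p-values measure the spread between these arrays, which may be technical. With 2 arrays against 2, permuting the arrays of 1 gene cannot give an exact p below 0.3333, and the tests below are those of limma, which shares the spread across all genes.

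DNA replication is prepared in G1, when the origin recognition complex, CDC6 and CDT1 load the MCM2-7 ring onto DNA, and geminin (GMNN) blocks a repeated loading. At the start of S phase the kinase CDC7 with its activator DBF4, together with MCM10 and the GINS complex, turns the ring into a moving helicase. Polymerase alpha with primase then lays down primers, the clamp loader RFC places the clamp PCNA, and polymerases delta and epsilon copy the strands, while RPA covers single-stranded DNA and FEN1 and LIG1 join the Okazaki fragments. Many of these genes are transcribed in late G1 and S under E2F factors, so that in a culture their mRNA follows how many cells are cycling. In such bulk RNA, fewer cells in S phase and less RNA per cell cannot be told apart.

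The promoter windows of 38 members were found in the RefSeq table for GRCh38.p14, from 250 bases before to 50 bases after the start site, and 6 members (MCM4, MCM5, GINS4, POLD3, RPA2 and RPA3) had no entry. The windows were searched on both strands for the 4 E2F-type strings TTTCCCGC, TTTCGCGC, TTTGCCGC and TTTGGCGC, with overlapping matches merged into 1 stretch. At least 1 stretch was present in 20 of the 38 windows (52.6%), against 3.99% of the windows of all 27305 genes of the table and 5.4% of those of 15843 protein-coding genes. By step the letters were found in 7 of 8 helicase windows, 4 of 8 origin windows, 7 of 17 polymerase windows and 2 of 5 nucleotide windows. The 24 stretches lay between base -187 and base 15 from the start site, and 13 of them fell within the 100 bases before it. The string CCAAT was present in 60.5% of members' windows and in 42.1% of protein-coding ones. A match describes letters and is not a measured binding site.

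The windows of 6 genes are printed 5′ to 3′ in the direction of the gene, with the E2F-type letters in capitals. GINS1 (chr20:25407423-25407722, + strand) and MCM2 (chr3:127598161-127598460, + strand) are shown because they had the lowest siRNA-to-parental ratios in Capan-1. MCM6 (chr2:135876394-135876693, - strand) is shown because its window held 2 stretches. CDC6 (chr17:40287629-40287928, + strand), FEN1 (chr11:61792661-61792960, + strand) and RPA1 (chr17:1829755-1830054, + strand) are shown because they differed most between the lines. In GINS1 the letters covered bases 6 to 13 after the start site, and in CDC6 bases 8 to 15. The windows of FEN1 and RPA1 held none of the 4 strings.
GINS1: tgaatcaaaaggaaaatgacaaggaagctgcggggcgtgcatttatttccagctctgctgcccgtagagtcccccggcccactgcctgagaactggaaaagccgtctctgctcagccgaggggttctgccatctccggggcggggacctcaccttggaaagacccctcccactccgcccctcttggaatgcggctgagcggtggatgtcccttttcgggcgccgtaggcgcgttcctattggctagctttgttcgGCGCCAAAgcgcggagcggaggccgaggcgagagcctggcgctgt
MCM2: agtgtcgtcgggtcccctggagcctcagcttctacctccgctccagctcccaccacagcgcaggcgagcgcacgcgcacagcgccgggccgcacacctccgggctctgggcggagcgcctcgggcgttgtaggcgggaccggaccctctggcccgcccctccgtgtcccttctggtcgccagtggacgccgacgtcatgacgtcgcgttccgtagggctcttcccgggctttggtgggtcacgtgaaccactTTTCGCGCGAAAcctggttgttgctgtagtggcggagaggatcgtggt
MCM6: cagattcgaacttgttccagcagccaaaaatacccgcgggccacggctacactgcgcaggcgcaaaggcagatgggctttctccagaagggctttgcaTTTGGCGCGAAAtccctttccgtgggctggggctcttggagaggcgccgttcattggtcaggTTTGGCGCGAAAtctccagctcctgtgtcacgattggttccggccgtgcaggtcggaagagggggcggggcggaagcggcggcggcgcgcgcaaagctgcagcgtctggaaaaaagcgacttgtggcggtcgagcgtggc
CDC6: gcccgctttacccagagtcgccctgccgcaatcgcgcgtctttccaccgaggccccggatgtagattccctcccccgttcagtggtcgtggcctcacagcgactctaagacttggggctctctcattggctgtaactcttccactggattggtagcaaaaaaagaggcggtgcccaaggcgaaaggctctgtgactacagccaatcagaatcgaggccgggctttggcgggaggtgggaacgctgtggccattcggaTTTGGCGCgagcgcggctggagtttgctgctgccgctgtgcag
RPA1: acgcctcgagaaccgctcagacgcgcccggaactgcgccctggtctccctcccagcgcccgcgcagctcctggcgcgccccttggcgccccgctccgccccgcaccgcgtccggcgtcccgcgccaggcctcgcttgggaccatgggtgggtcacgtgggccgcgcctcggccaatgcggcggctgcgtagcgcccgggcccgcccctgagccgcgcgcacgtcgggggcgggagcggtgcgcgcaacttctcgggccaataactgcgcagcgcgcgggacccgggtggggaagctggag
FEN1: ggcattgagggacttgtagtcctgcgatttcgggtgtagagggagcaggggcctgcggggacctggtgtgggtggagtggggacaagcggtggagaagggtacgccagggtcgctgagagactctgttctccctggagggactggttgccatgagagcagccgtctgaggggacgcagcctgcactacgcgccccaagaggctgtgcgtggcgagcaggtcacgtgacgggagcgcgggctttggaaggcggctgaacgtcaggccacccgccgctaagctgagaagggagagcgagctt

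**Figure D1:**
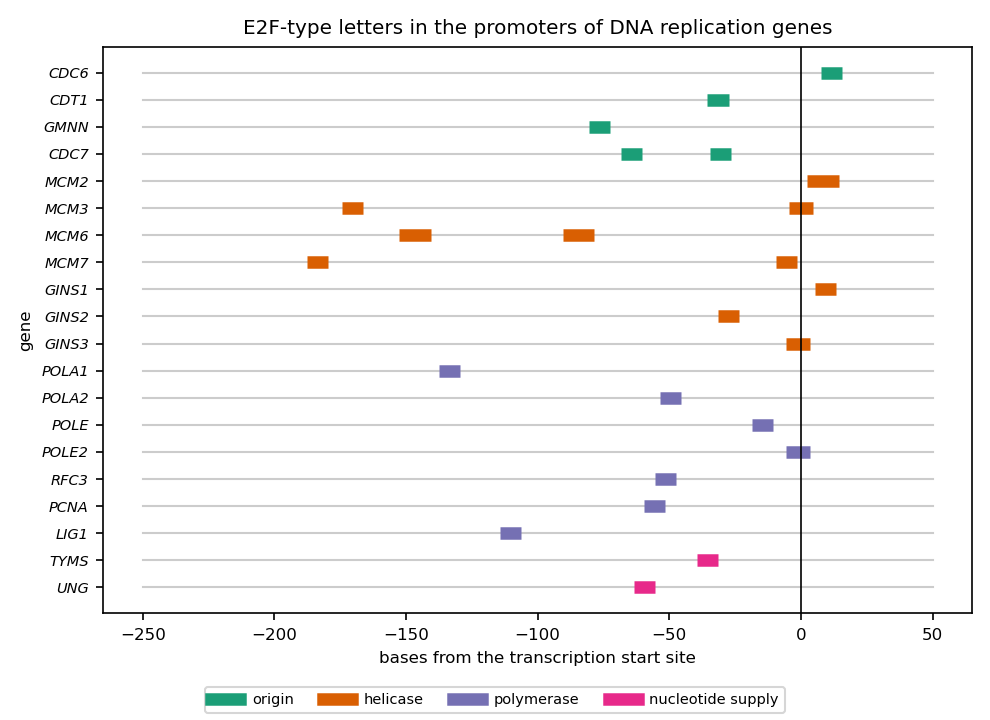
Positions of the E2F-type letters in the promoter windows of the members, in bases from the RefSeq start site, with 1 row per gene and the genes grouped by step. The 24 stretches of 20 genes lie between -187 and 15, and 13 of them lie in the 100 bases before the start site.

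Between 69.2% and 74.3% of spots were well above background on each array, and replicate arrays correlated at 0.994 to 0.997. HOXB7 itself was at log2 levels of -4.82 and -4.10 on the parental MIA PaCa-2 arrays and was not well above background on either siRNA array of that line, which makes it at least 2.82-fold lower with siRNA (limma adjusted p = 0.013). In Capan-1 it was at -2.48 and -2.34 without and at -5.26 and -4.80 with siRNA, a difference of -2.62 (SE 0.26) that missed the threshold (limma adjusted p = 0.0938). The epithelial marker genes EPCAM and CDH1 were not well above background on any MIA PaCa-2 array, where the keratin genes KRT8, KRT18 and KRT19 were well above background, while vimentin (VIM) lay between 7.87 and 8.31 there and between -1.14 and -0.88 in Capan-1.

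Levels are given as log2 of the deposited intensity minus the 75th percentile of the same array, so that 0 is the brightness below which 75% of probes lie. Such a level depends on the probe as well as on the mRNA, so levels were compared between arrays for a gene and not between genes. The brightest probe of every one of the 44 genes was well above background on all 8 arrays, and 54 of the 55 probes were so on all 8. No member probe was saturated.

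**Figure D2:**
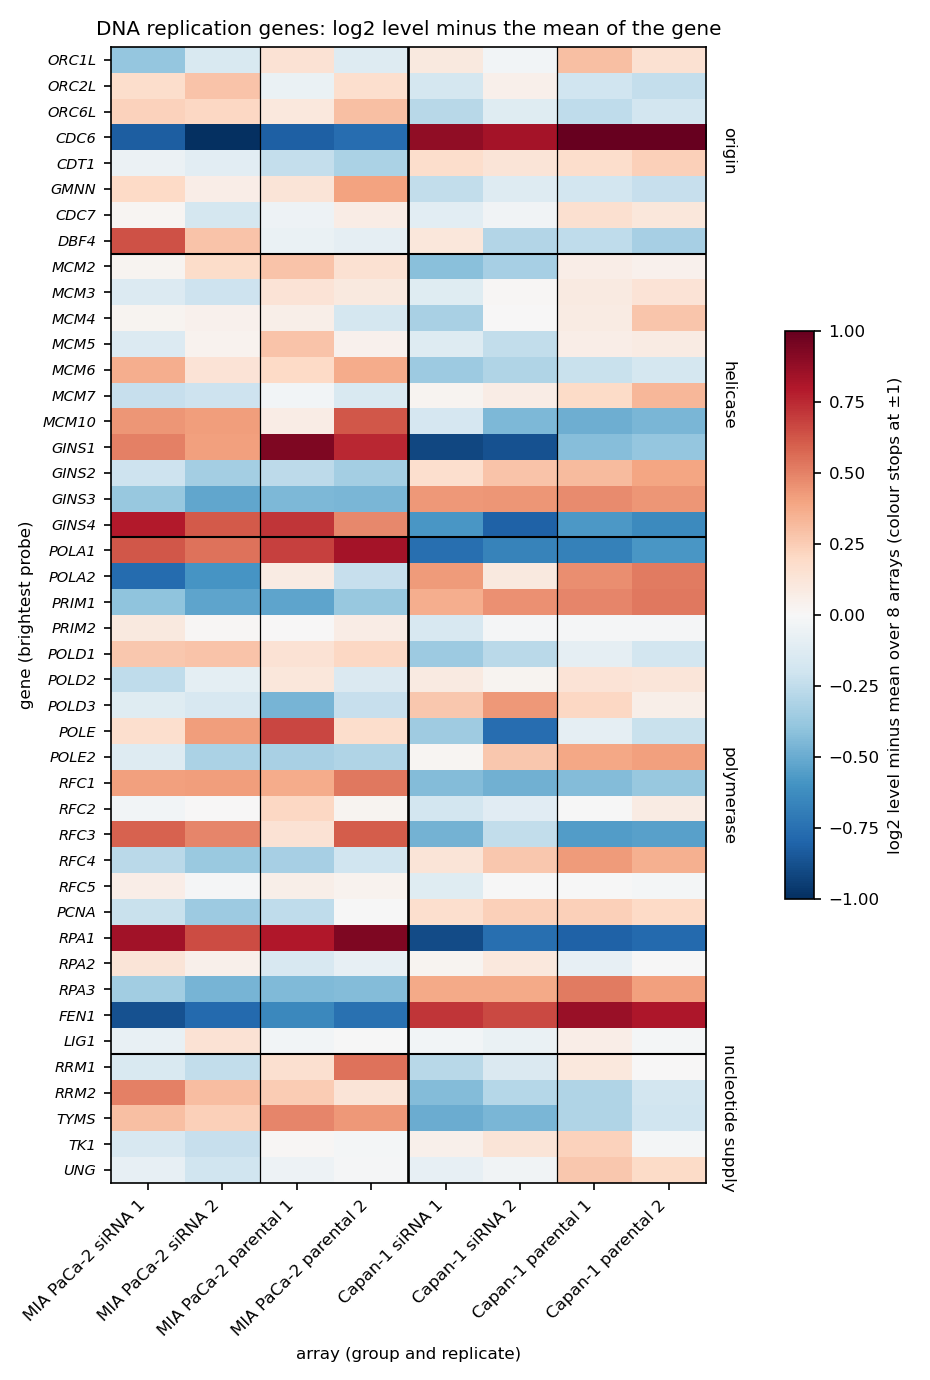
Heat map of the 44 genes on the 8 arrays, with each gene's log2 level minus its mean over the arrays as colour, on a scale that stops at -1 and 1, and genes ordered by step. The colour changes mainly between the 4 MIA PaCa-2 and the 4 Capan-1 arrays, as for CDC6 and FEN1, which are lower in MIA PaCa-2, and RPA1 and POLA1, which are higher there.

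The first question was whether the replication genes differed between HOXB7 siRNA and parental cells within each line. In MIA PaCa-2, none of the 44 genes passed the threshold of limma (adjusted p under 0.05, with p adjusted over all probes tested). None was lower (0 of 44, against 1.53% of the 19134 genes tested) and none higher (0 of 44, against 1.42%). At an unadjusted p under 0.05 there were 4 lower genes (9.09% of the members, against 10.8% of all genes) and 3 higher ones (6.82%, against 10.8%). Below 0 were 26 of the 44 differences (59.1%, against 47.3% of all genes), and their median was -0.05 on the log2 scale (-0.07 to -0.02 with 1 array left out), against 0.02 for all genes. In this line the members passed neither threshold more often than all genes did.

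Among the helicase genes of MIA PaCa-2, GINS1 (a subunit of the GINS complex, probe at chr20:25377111-25377170 in hg18) came closest to the threshold. Its siRNA arrays read 1.78 and 1.69, and its parental arrays 2.21 and 2.03. The siRNA arrays were both below the parental ones, by -0.38 (SE 0.09, 1.31-fold, limma adjusted p = 0.0892). The other GINS subunits differed by 0.00 (GINS3), 0.03 (GINS2) and 0.11 (GINS4), each with overlapping arrays. Of the ring subunits MCM2 to MCM7, 5 of 6 were below 0 with a median of -0.12. MCM3 had the lowest value of the ring, at 3.78 and 3.72 with siRNA against 4.06 and 4.02 without. That difference of -0.29 (SE 0.08) did not pass (adjusted p = 0.126). MCM5 read 2.58 and 2.76 with siRNA and 3.01 and 2.77 without, a difference of -0.21 at its brighter probe (-0.33 to -0.10 with 1 array left out) and -0.42 at its other probe.

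The largest difference in MIA PaCa-2 was that of POLA2, the regulatory subunit of polymerase alpha. Its level was -0.56 and -0.39 with siRNA and 0.29 and -0.02 in parental cells. The difference was -0.61 (SE 0.16, 1.52-fold, adjusted p = 0.102). Members were named for their size only where siRNA and parental arrays did not overlap, so that order was required of them and is not a further result. RRM1, the large subunit of ribonucleotide reductase, read 3.12 and 3.02 with siRNA and 3.43 and 3.81 without, a difference of -0.55 (SE 0.14, adjusted p = 0.0993) that ran from -0.74 to -0.36 with 1 array left out. Its partner RRM2 lay on the other side of 0, at 2.28 and 2.08 with siRNA and 2.02 and 1.90 without. That difference of 0.22 (0.12 to 0.32 with 1 array left out) had an adjusted p of 0.321, and thymidine kinase (TK1) differed by -0.19.

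At the origins of MIA PaCa-2, 4 of 8 genes were below 0. DBF4, the activator of CDC7, had the highest value of all members, at 0.84 and 0.49 with siRNA against 0.14 and 0.12 in parental cells. The difference was 0.54 (SE 0.17, 1.46-fold, adjusted p = 0.147), while a second, dimmer DBF4 probe gave 0.13 (SE 0.30). ORC1L read -1.52 and -1.28 with siRNA and -0.98 and -1.25 without, and CDC6 read -2.65 and -3.16 against -2.64 and -2.59. Both were lower with siRNA without overlap, by -0.28 and -0.29, at adjusted p = 0.305 and 0.367. With 1 array left out the difference of ORC1L ran from -0.41 to -0.14 and that of CDC6 from -0.54 to -0.03. Of the polymerase genes, 12 of 20 were below 0. RPA2 and POLD3 were higher with siRNA without overlap, by 0.21 each, with adjusted p = 0.222 and 0.358. Without scaling between arrays, which moved all genes of this line down together, both values turned to just below 0 (-0.0034 and -0.0047). With 1 array left out POLD3 ran from 0.09 to 0.33.

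In Capan-1, again no member passed the threshold as lower (0 of 44, against 0% of 18861 genes) or higher (0 of 44, against 0.0053%, which is 1 gene). The differences lay on 1 side more often than those of all genes, with 36 of 44 below 0 (81.8%, against 50.7%) and a median of -0.11 against -0.003. Both siRNA arrays were below both parental arrays for 27 members (61.4%, against 27.7%) and above them for 5 (11.4%, against 26.4%), namely MCM10, ORC2L, POLD3, RFC3 and RPA2. In MIA PaCa-2 the same counts were 14 lower (31.8%, against 24.3%) and 7 higher (15.9%, against 27.7%). At an unadjusted p under 0.05, 4 members were lower in Capan-1 (9.09%, against 7.23%) and none was higher (0 of 44, against 5.88%). Most members were thus below 0 by amounts that the test of single genes did not separate from the spread between arrays.

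As such shares can depend on signal, they were also taken over the 3798 genes whose levels lay in the range of the middle of the members (0.88 to 3.45). In Capan-1, 18 of the 22 members in that range were below 0 (against 46.8% of those genes). In MIA PaCa-2, 11 of 22 were (against 51.9%).

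By step, the differences in Capan-1 were below 0 for 10 of 11 helicase genes, 17 of 20 polymerase genes, 5 of 5 nucleotide genes and 4 of 8 origin genes. Set against the median of all genes, the counts of the helicase, polymerase and nucleotide genes were the same under quantile normalization. Leaving arrays unscaled or scaling to the spike-in probes moves all genes of an array alike, so these settings could not change such counts. All 6 ring subunits were below 0 in Capan-1, with values from -0.43 (MCM2) to -0.13 (MCM6) and a median of -0.24. They were so under quantile normalization too. The unscaled and spike-in settings moved all genes of this line further down, so these could not turn the signs. All 4 GINS subunits were below 0 as well, from -0.48 (GINS1) to -0.02 (GINS3). MCM10 was the helicase gene above 0, at 0.17.

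GINS1 had the lowest ratio of the members in Capan-1, at 0.37 and 0.41 with siRNA against 0.85 and 0.90 in parental cells. The pairs lay clearly apart, by -0.48 (SE 0.09, 1.40-fold), but the limma p adjusted over all probes tested was 0.181. MCM2 (a ring subunit, probe at chr3:128823495-128823554 in hg18) was next, at 3.25 and 3.34 with siRNA and 3.73 and 3.71 without. Its difference was -0.43 (SE 0.09, 1.35-fold, adjusted p = 0.209), and in MIA PaCa-2 it was -0.11 with overlapping arrays. MCM4 read 1.85 and 2.18 with siRNA and 2.25 and 2.45 without, a difference of -0.33 (adjusted p = 0.398) that lay between -0.50 and -0.17 when 1 array was dropped. In MIA PaCa-2 it was 0.09.

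In the nucleotide group of Capan-1, UNG, which removes uracil from DNA, read 3.86 and 3.91 with siRNA and 4.21 and 4.13 in parental cells. The difference was -0.29 (SE 0.08, adjusted p = 0.276). TYMS, which makes thymidylate, was at 4.10 and 4.14 against 4.29 and 4.39, a difference of -0.22 (SE 0.08, adjusted p = 0.335). RRM1 was at 2.99 and 3.13 against 3.38 and 3.28, a difference of -0.27 (adjusted p = 0.461). In both lines the siRNA arrays of these 3 genes lay below the parental arrays without overlap, as for 11.3% of 17433 genes. In Capan-1 the lack of overlap was a condition for naming them, and for RRM1 it was so in MIA PaCa-2 too.

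Polymerase genes of Capan-1 with the lowest values were POLE (-0.40), POLE2 (-0.25) and POLA2 (-0.23), with adjusted p from 0.409 to 0.564. POLE read -2.06 and -2.46 with siRNA and -1.80 and -1.93 in parental cells, POLE2 0.82 and 1.08 against 1.19 and 1.22, and POLA2 0.63 and 0.30 against 0.67 and 0.72. The siRNA arrays of each differed from one another by more than the parental arrays did, and with 1 array left out the differences ran from -0.60 to -0.20 for POLE, from -0.38 to -0.13 for POLE2 and from -0.40 to -0.06 for POLA2. POLE and POLE2 are the catalytic and second subunits of polymerase epsilon. Another POLE probe gave 0.29, the opposite sign, so that the direction of POLE depended on the probe. The 3 probes of PRIM2 disagreed in sign as well, from -0.13 to 0.17 in Capan-1 and from -0.09 to 0.02 in MIA PaCa-2. Origin genes were divided, with CDC7 at -0.20 and ORC1L at -0.19 (-0.26 to -0.11 with 1 array left out) below 0 and ORC2L at 0.16 (0.05 to 0.27) above it. PCNA, the sliding clamp, differed by -0.02 in Capan-1 and by -0.16 in MIA PaCa-2, with overlapping arrays in both.

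**Figure D3:**
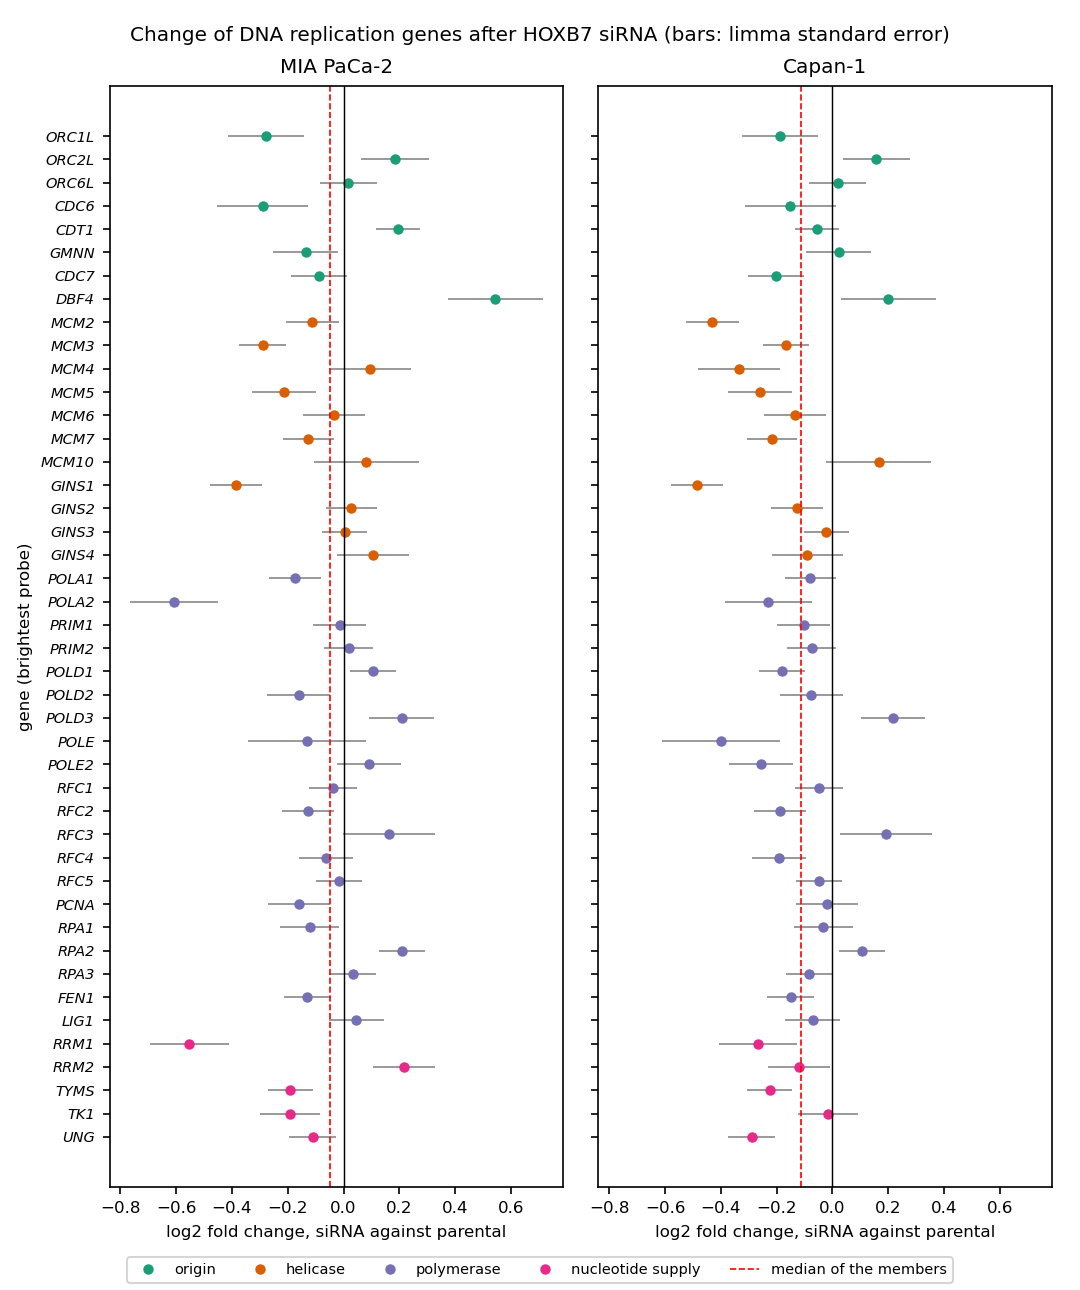
Log2 difference between siRNA and parental arrays for each of the 44 genes in MIA PaCa-2 and Capan-1, with bars for the standard error of the limma fit and a dashed red line at the median of the members. The medians are -0.05 and -0.11, and GINS1 lies below 0 in both panels.

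Taking both lines, 25 of 44 members were below 0 in each (56.8%, against 29.9% of 17433 genes) and 7 were above 0 in each (15.9%, against 31.5%). The siRNA arrays lay below the parental arrays without overlap in both lines for 12 members (27.3%, against 11.3%). They were the helicase genes GINS1, MCM3, MCM5 and MCM7, the origin genes CDC6 and ORC1L, the polymerase genes FEN1, POLA2 and RFC2, and the nucleotide genes RRM1, TYMS and UNG. The opposite order in both lines was found for ORC2L, POLD3 and RPA2 (6.82%, against 10.3%). Under another scaling the value of each turned below 0 in both lines. This was so in MIA PaCa-2 without scaling and in Capan-1 with spike-in scaling, where ORC2L was at -0.22. Those settings moved all genes of the line down together, and each of these genes stayed above the median of all genes. The difference between the lines in their siRNA response was itself tested, and no member passed (0 of 44 lower, against 0.00486% of all genes, and 0 of 44 higher, against 0%). That difference ran from -0.38 for POLA2 to 0.43 for MCM4, with a lowest limma adjusted p of 0.452 and no member at an unadjusted p under 0.05. The members below 0 in Capan-1 were therefore not shown to respond otherwise than in MIA PaCa-2.

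The mean of both lines' siRNA differences was added after the values were seen, and it uses the same arrays as the comparisons within each line. GINS1 was the single member that passed (1 of 44 lower, against 1.24% of all genes, and 0 of 44 higher, against 0.943%), so the members' share of 2.27% lay near that of all genes. GINS1 fell by 0.43 on the log2 scale (SE 0.07, 1.35-fold, limma adjusted p = 0.0457), with the siRNA arrays below the parental arrays in both lines. The call did not hold when any 1 of the 8 arrays was left out, with adjusted p from 0.0516 to 0.152 and differences from -0.48 to -0.39. Without scaling between arrays its adjusted p was 0.134. RRM1 followed at -0.41 (adjusted p = 0.0982), MCM2 at -0.27 (0.100) and POLA2 at -0.42 (0.114). DBF4 had the highest mean, 0.37 (adjusted p = 0.162).

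**Figure D4:**
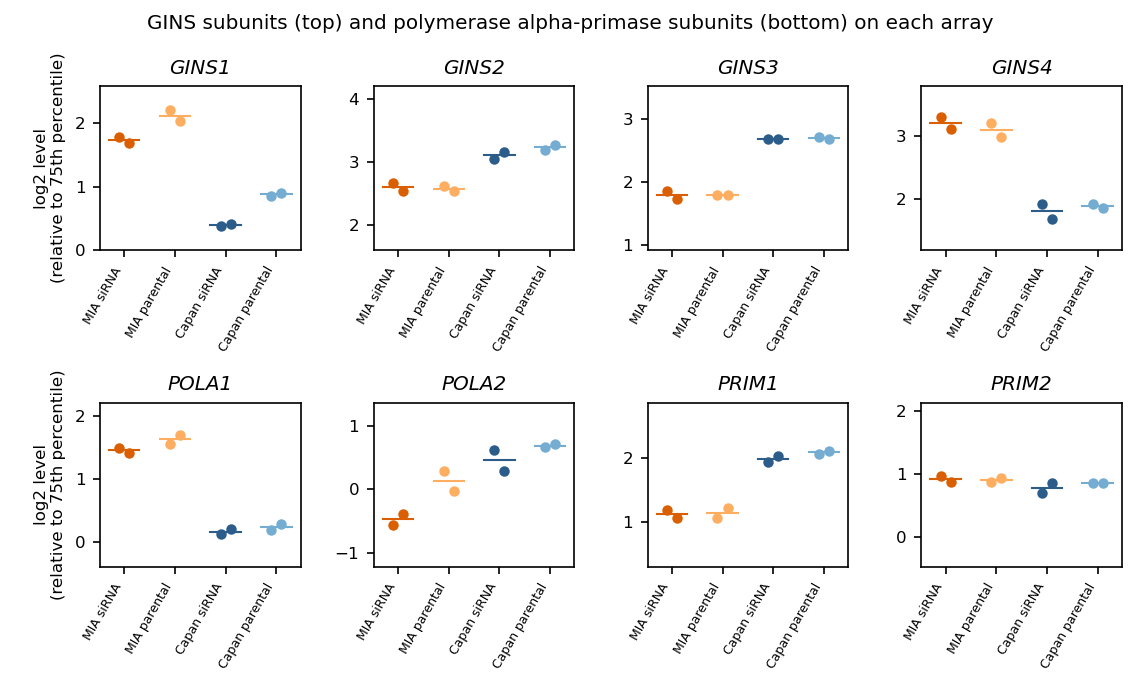
Log2 level on each array (points) and group mean (lines) for the 4 GINS subunits and for the 4 subunits of polymerase alpha with primase. GINS1 and POLA2 are lower on siRNA than on parental arrays in both lines, while GINS1, GINS4 and POLA1 are higher and GINS2, GINS3 and PRIM1 lower in MIA PaCa-2 than in Capan-1.

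The differences were also set beside the promoter letters. In Capan-1, 18 of the 20 genes whose windows held E2F-type letters were below 0, with a median of -0.16, and 14 of the 18 genes without the letters were, with a median of -0.07. In MIA PaCa-2 the counts were 14 of 20, with a median of -0.12, and 11 of 18, with a median of -0.03. These are descriptions of the listed genes, and the difference between genes with and without the letters was not tested.

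A further list of 45 replication genes outside the members (cyclins of the G1/S transition, checkpoint, chromatin assembly and origin factors) was counted in the same way. In MIA PaCa-2, 22 of 45 were below 0 (against 47.3% of all genes) with a median of 0.02. As higher, 1 passed the threshold (against 1.42% of all genes), and as lower 0 did (against 1.53%). The gene that passed was CCNE1, the gene of cyclin E1, which rose by 0.73 (SE 0.08, limma adjusted p = 0.0228). CDK2 (-0.79, adjusted p = 0.0686) and CCNE2 (-0.46, adjusted p = 0.120), named after their values were seen, were lower and did not pass. In Capan-1, 24 of the 44 genes tested were below 0 (against 50.7% of all genes), with a median of -0.02. None passed (0 of 44 lower, against 0%, and 0 of 44 higher, against 0.0053%). At an unadjusted p under 0.05, 2 were lower (against 7.23% of all genes) and 2 higher (against 5.88%). CCNE1 differed by 0.27 there (adjusted p = 0.302).

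The next comparison asked how the parental lines differ in their replication genes. In parental MIA PaCa-2, 14 of 44 members were lower than in parental Capan-1 (31.8%, against 31.3% of 20107 genes) and 14 were higher (31.8%, against 39%). In all, 28 members passed (63.6%), where 70.3% of all genes did, so the members differed between the lines about as often as other genes. All 28 kept the same order without overlap on the siRNA arrays, as did 96.1% of all genes that passed. The median was 0.03 over the members (-0.02 to 0.04 with 1 array left out) and 0.10 over all genes, and its sign turned with spike-in scaling (-0.18) and quantile normalization (-0.048). Within most complexes some subunits were higher in one line and some in the other.

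Licensing factors were lower in MIA PaCa-2. CDC6 (probe at chr17:35712880-35712939 in hg18), which brings the ring to origins, read -2.64 and -2.59 in parental MIA PaCa-2 and -0.83 and -0.81 in parental Capan-1. The difference was the largest of the members, -1.80 (SE 0.16, 3.47-fold, limma adjusted p = 0.000147), and the siRNA arrays kept it, at -2.65 and -3.16 against -0.94 and -0.999. Over the alternatives the CDC6 difference ran from -2.01 to -1.12, where that of FEN1 ran from -1.74 to -1.48. The size and rank of CDC6 thus depended on the processing. CDT1 was lower by -0.49 (SE 0.08, adjusted p = 0.00198), while its inhibitor GMNN was higher by 0.47 (SE 0.12, adjusted p = 0.0116). ORC6L was higher by 0.42 (adjusted p = 0.0111). ORC2L was 0.27 higher at its brighter probe, which did not pass (adjusted p = 0.0918), and 0.69 higher at its other probe, which did (adjusted p = 0.00429). CDC7, DBF4 and ORC1L did not pass, at values between -0.22 and 0.21.

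The GINS complex was divided evenly between the lines. GINS1 read 2.21 and 2.03 in parental MIA PaCa-2 and 0.85 and 0.90 in parental Capan-1, a difference of 1.25 (SE 0.09, 2.37-fold, adjusted p = 6.17e-05). GINS4 read 3.21 and 2.98 against 1.92 and 1.86, a difference of 1.20 (SE 0.13, 2.30-fold, adjusted p = 0.000305). The other subunits lay the opposite way. GINS3 read 1.79 and 1.78 against 2.71 and 2.68, a difference of -0.91 (SE 0.08, adjusted p = 0.000141), and GINS2 differed by -0.66 (SE 0.09, adjusted p = 0.00106). All 4 calls held under every alternative tried.

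The ring itself differed less. Of MCM2 to MCM7, MCM6 was higher in MIA PaCa-2 by 0.48 (adjusted p = 0.00887) and MCM7 lower by -0.36 (adjusted p = 0.0132), with a second MCM7 probe at -1.10. MCM2, MCM3, MCM4 and MCM5 did not pass, with values between -0.23 and 0.16. The 2 probes of MCM5 disagreed in sign, at 0.09 for the brighter and -0.16 for the other. MCM10, which helps start the helicase, was higher by 0.82 (SE 0.19, adjusted p = 0.00901).

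Polymerase alpha with primase was divided as well. POLA1, the catalytic subunit (probe at chrX:24924824-24924883 in hg18), read 1.56 and 1.71 in parental MIA PaCa-2 and 0.20 and 0.29 in parental Capan-1, a difference of 1.39 (SE 0.09, 2.62-fold, adjusted p = 3.79e-05). PRIM1, the primase subunit that makes the RNA primer, read 1.06 and 1.21 against 2.07 and 2.12, a difference of -0.96 (SE 0.10, 1.95-fold, adjusted p = 0.000208). POLA2 was lower by -0.56 (SE 0.16, adjusted p = 0.0196), and PRIM2 differed by 0.05 (adjusted p = 0.635). Each subunit of the complex thus had its own ratio between the lines.

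The single-strand binding complex RPA held the highest positive value. RPA1, its largest subunit (probe at chr17:1747916-1747975 in hg18), read 4.36 and 4.50 in parental MIA PaCa-2 and 2.76 and 2.78 in parental Capan-1. The difference was 1.66 (SE 0.11, 3.16-fold, adjusted p = 2.95e-05), but a second, dimmer RPA1 probe gave 0.21 (adjusted p = 0.119), so its size depended on the probe. RPA3, the smallest subunit, was at 4.11 and 4.12 against 5.07 and 4.96, lower by -0.90 (SE 0.09, adjusted p = 0.000168). RPA2 differed by -0.08 (adjusted p = 0.435) and by 0.02, the opposite sign, at its other probe.

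FEN1, the flap nuclease that trims Okazaki fragments (probe at chr11:61320605-61320663 in hg18), was at 0.87 and 0.77 in parental MIA PaCa-2 and 2.38 and 2.32 in parental Capan-1. Its difference of -1.53 (SE 0.08, 2.89-fold) had the lowest adjusted p of the members, 1.68e-05. LIG1, the ligase of the same step, differed by -0.04. Of the clamp loader, RFC1 (0.86) and RFC3 (0.93) were higher in MIA PaCa-2, RFC4 was lower (-0.65), and RFC2 and RFC5 did not pass. PCNA was lower by -0.35 (adjusted p = 0.0304). Of the copying polymerases, POLD1 (0.31) and POLE (0.58) were higher, and POLD3 (-0.48) and POLE2 (-0.71) were lower.

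Of the nucleotide genes, TYMS was higher in MIA PaCa-2, at 5.08 and 5.02 against 4.29 and 4.39, a difference of 0.71 (SE 0.08, adjusted p = 0.000412). RRM2 was higher by 0.43 (adjusted p = 0.0143) and UNG lower by -0.26 (adjusted p = 0.0306). RRM1 (0.29) and TK1 (-0.11) did not pass. Among the 45 other replication genes, 14 had lower levels in the parental MIA PaCa-2 cells (against 31.3% of all genes) and 16 had higher ones (against 39%), with TIPIN of the fork protection complex at -1.59 and the MCM-like gene MCM9 at 1.73.

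Of the 28 calls between the lines, 11 were lost when 1 array was left out and 17 were kept. GMNN was lost without Capan-1 parental replicate 2 (adjusted p = 0.0591), MCM6 without Capan-1 parental replicate 1 (0.0510) and POLD3 without that array (0.0687). ORC6L was lost without MIA PaCa-2 parental replicate 2 (0.0514) or Capan-1 parental replicate 1 (0.0649), and RRM2 without replicate 1 of either parental line (0.0645 and 0.0839). MCM7 (0.0592 and 0.0823) and POLD1 (0.0607 and 0.0926) were lost without replicate 2 of either parental line. PCNA was lost without MIA PaCa-2 parental replicate 1 and without each Capan-1 parental array, and POLA2 without MIA PaCa-2 parental replicate 2 and without each Capan-1 parental array. UNG was lost without any 1 parental array, and POLE without any of 5 arrays, including both MIA PaCa-2 siRNA arrays. With 1 array left out the differences ran from -0.48 to -0.23 for PCNA and from 0.34 to 0.83 for POLE. Without scaling between arrays 9 calls were lost (CDT1, MCM7, ORC6L, PCNA, POLA2, POLD1, POLE, RRM2 and UNG), and 9 were lost when the spike-in probes set the scale (GMNN, MCM6, MCM7, ORC6L, POLD1, POLE, RRM2, TYMS and UNG). The 15 calls that held under every alternative were those of CDC6, FEN1, GINS1, GINS2, GINS3, GINS4, MCM10, POLA1, POLE2, PRIM1, RFC1, RFC3, RFC4, RPA1 and RPA3.

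**Figure D5:**
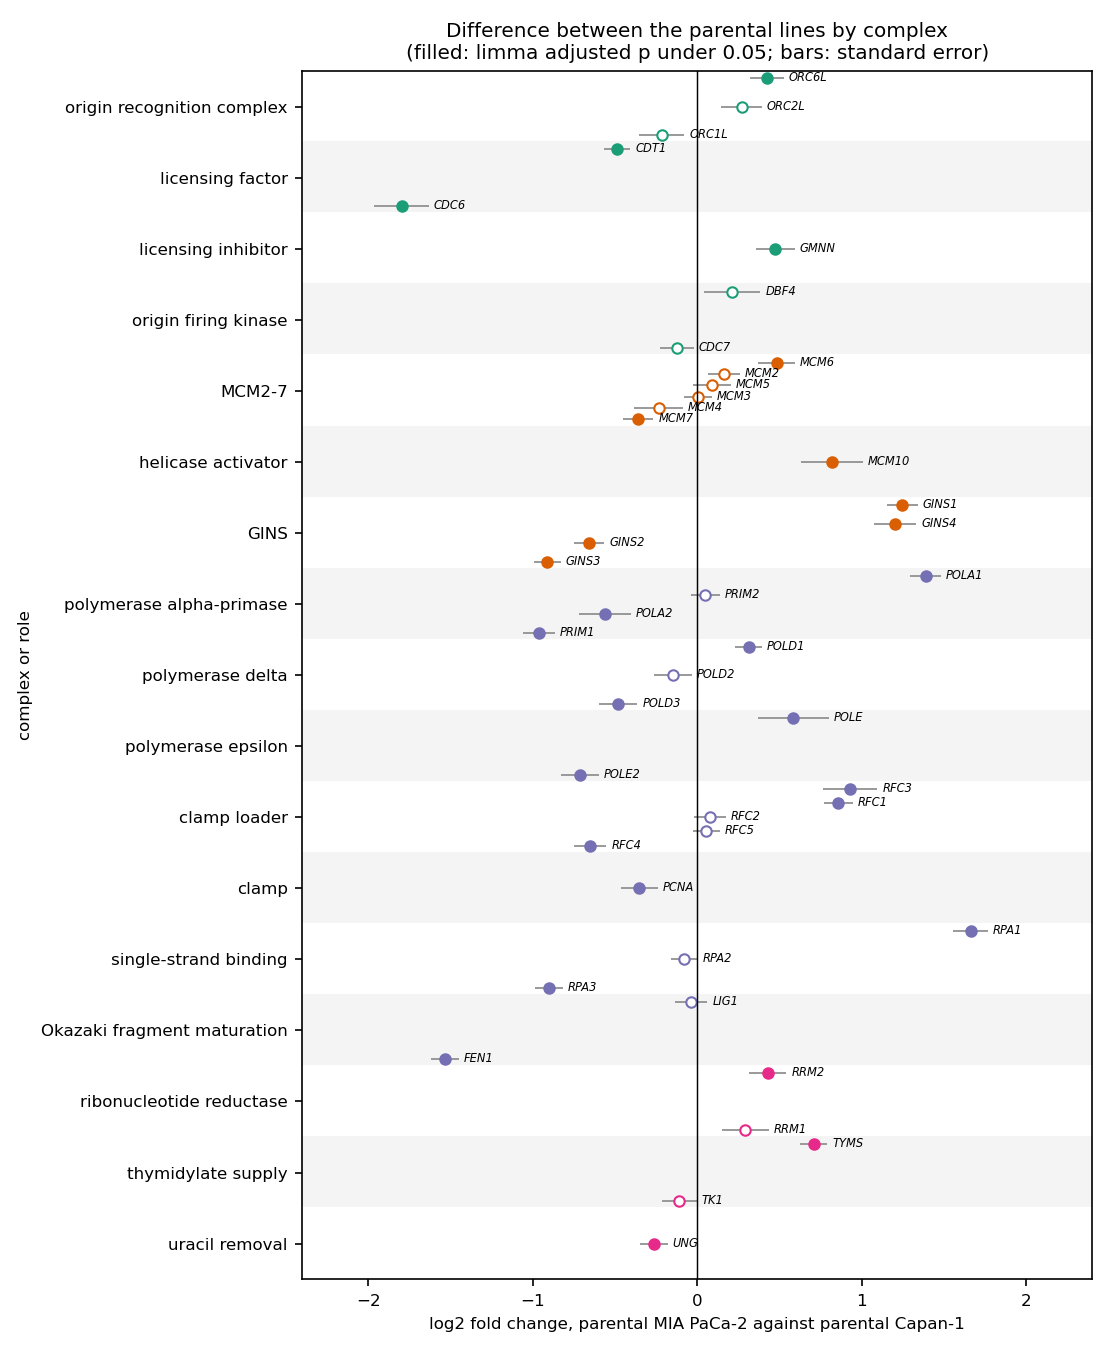
Log2 difference between parental MIA PaCa-2 and parental Capan-1 for each gene, grouped by complex, with bars for the standard error and filled points for a limma adjusted p under 0.05. The 28 filled points are divided into 14 below and 14 above 0, and GINS, polymerase alpha with primase and RPA each hold points on both sides.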

How the data were processed

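RNA of 8 samples was hybridised by the authors to one-colour Agilent 4x44K arrays, scanned and extracted with Feature Extraction 9.5.3, per the file headers, with probe positions on hg18. The deposited intensity values were Agilent's processed signals, background-subtracted by that software, with no normalization between arrays. The deposited table of log2 values held the log2 of these intensities (largest difference 3.5e-08) and served as an alternative. Precision is limited by the number of arrays, as array data carry no read depth.

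Control spots and spots with an outlier flag were left out, spots of a probe were averaged, and the log2 intensities were set relative to the 75th percentile of their array. A probe was tested where 1 or more of the groups compared had it well above background on both of its arrays. The brightest probe stood for a gene. A limma fit (3.58.1, R 4.3.3) of 4 group means over all 8 arrays was used, with two-sided Benjamini-Hochberg adjusted p under 0.05 over all probes tested. Every adjusted p in the text is from limma. Tables were joined in Python 3.11.15 with pandas 2.3.3, and promoter letters were matched to the RefSeq table for GRCh38.p14. The code was tested on simulated data.

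The gene lists and the members were chosen with earlier results of these data known. Named were members past the threshold and the 3 members of each step with the largest difference without overlap between arrays. Also named were members whose probes disagreed in sign within a line or between the parental lines, genes of the other lists past the threshold, and HOXB7. The mean of both lines' siRNA differences, with its alternatives, was added after seeing the data, as were the promoter comparison and TIPIN and MCM9, named among the other replication genes past the threshold. Alternatives were other background corrections, scalings, filters, probe rules and fits, the interval holding 99% of parental log2 ratios in a window of 1000 probes (after the study's method), a replicate block and each array left out.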

Additional observations from a re-analysis of the deposited data

How the results depend on the processing

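Under normexp background correction 1 member (RRM1) passed, and when the spread followed intensity 2 members (GINS1 and RRM1) passed, as lower with siRNA in MIA PaCa-2, and the interval of the parental arrays marked 1 (GINS1) in Capan-1. The mean of both lines gave 5 lower members under normexp and 5 when the spread followed intensity, and 0 without scaling, with spike-in scaling, without a filter on dim probes, with the replicate block, and with each array left out (0 to 0). Scaling moved all genes together: the members' median siRNA difference in MIA PaCa-2 was -0.26 without scaling and -0.17 with spike-in scaling (all genes -0.20 and -0.10), in Capan-1 -0.26 and -0.49 (all genes -0.16 and -0.38), and in the mean of both lines -0.27 and -0.33. With spike-in scaling the difference of the siRNA differences had a median of 0.31 (all genes 0.28). Between parental lines, 9 members were lower and 10 higher without scaling, and 12 lower and 7 higher with spike-in scaling, with medians of -0.18 under spike-in scaling and -0.048 under quantile normalization (all genes -0.11 and 0.11). Leaving out each array gave 10 to 14 lower and 10 to 14 higher members between parental lines. Among members named for their size in a line, signs turned for RPA2 (-0.0034) and POLD3 (-0.0047) in MIA PaCa-2 without scaling. In Capan-1 the sign of ORC2L (-0.22) turned with spike-in scaling. Other members above 0 by less than such a shift turned as well, among them ORC2L in MIA PaCa-2 and RPA2 and POLD3 in Capan-1. The cause of these shifts was not tested. Of the named members' values under the alternatives between parental lines, 541 kept their direction and side of the threshold, 56 kept the direction but no longer passed and 3 newly passed. Arrays with the same replicate number did not deviate together (correlations 0.020 and 0.038 over 20359 probes), and the replicate block left 0 siRNA calls and 11 lower and 12 higher members between parental lines.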

Other observations

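A list of 22 genes of G2 and mitosis was counted beside the replication genes. With siRNA, 16 of 22 were below 0 in MIA PaCa-2 (against 47.3% of all genes, median -0.10) and 19 of 22 in Capan-1 (against 50.7%, median -0.09). BIRC5, the gene of survivin, fell by 0.73 on the log2 scale in MIA PaCa-2 (SE 0.08, limma adjusted p = 0.0214) and differed by -0.31 in Capan-1 (adjusted p = 0.257). No other gene of the list passed in either line, where 1.53% and 0% of all genes passed as lower. Between the parental lines, 15 of 22 were higher in MIA PaCa-2 (against 39% of all genes) and none was lower (0 of 22, where 31.3% of all genes were), with a median of 0.51. KIF20A, a mitotic kinesin, was higher by 2.04, CENPF of the kinetochore by 1.95 and CCNB1, cyclin B1, by 1.61, which were chosen after their values were seen.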
